A study of Mus musculus with 5 samples.

Results

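Myc, Mycn, Mycl, Max, Mxd1, Mxd4, Mxi1 and Mga, the genes of the Myc family, their shared partner and its antagonist partners, were followed in single-cell transcriptomes of mouse bone marrow. They are 8 of the 15287 genes of the count table, and all 8 are present. The family was selected on its levels in these same cells, by library and by class, so its levels are given as a description, without a test. All samples came from bone marrow of untreated 20 weeks old mice of the strain Fgd5CreERT2/+Rosa26Tomato/+, in which a knock-in allele at the Fgd5 locus marks cells that express Fgd5 with the green protein ZsGreen. Lin-kit+ cells, which lack lineage markers and carry the stem cell factor receptor Kit, gave 3 libraries, called a, b and c. Reporter-positive Lin-kit+ cells (Fgd5+) gave 1 library, and reporter-positive cells that also met the hematopoietic stem cell (HSC) gate of Sca1+, CD150+ and CD48- (HSC-Fgd5+) gave another. The number of mice behind them is not stated, so n counts libraries, and the spread between them may be technical.

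MYC, MYCN and MYCL are basic helix-loop-helix leucine zipper proteins that bind E-box sequences as dimers with MAX and activate genes for growth, ribosome production and metabolism. MXD1, MXD4 and MXI1 compete for MAX and for the same E-boxes and repress them by recruiting the SIN3 and histone deacetylase corepressor, while MGA, which also carries a T-box domain, pairs with MAX inside a Polycomb complex (PRC1.6). In the bone marrow, Myc is known as a driver of progenitor growth and division, and Myc and Mycn are known to act together in the maintenance and survival of HSCs.

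The table holds 12893 cells, between 519 and 6147 per library, with 2166655 to 36080242 unique molecular identifiers (UMIs, each one captured transcript) per library and medians of 3721 to 6567 UMIs per cell. The 5 barcode suffixes name no population. They were matched to populations by cell number (793 cells for Fgd5+, 519 for HSC-Fgd5+, the other 3 for Lin-kit+), and every difference between populations depends on that match. For the pair of reporter-positive samples, title and source in the labels disagree on which one had the HSC gate. The 10 HSC markers summed to 64.2 to 69.0 CPM (UMIs of a gene per 1000000 UMIs of the library or, further on, of the class) in Lin-kit+ and to 1793 and 1899 CPM in the reporter-positive libraries, with 0 markers of the 10 at 0 there. The 11 late neutrophil markers summed to 60258 to 71615 CPM in Lin-kit+, to 1242 CPM in Fgd5+ and to 7.38 CPM in HSC-Fgd5+. Erythroid markers were higher in Fgd5+ and HSC-Fgd5+, at 1974 and 2055 CPM against 526 to 683 CPM in Lin-kit+. So were megakaryocyte markers (527 and 449 against 276 to 336 CPM) and dendritic markers (1209 and 1309 against 983 to 1029 CPM). B-lymphoid markers overlapped, and the remaining lists were lower. Of 12830 distinct barcodes, 62 occurred in more than 1 library. The libraries are 3′ tag libraries with 1 UMI per captured molecule, so CPM needs no correction for gene length. Intervals are 95% intervals that cover counting error only. Where a gene had no UMI, the level said to be allowed is a floor of 3 counts at that depth. This floor is lower than the upper end of the 95% interval.

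Mycn and Mxd4 are the MYC gene and the MXD gene that stood highest in the reporter-positive libraries relative to Lin-kit+, and the 250 bases before their start sites are shown for that reason. They are from RefSeq (build GRCm38.p6), Mycn from chr12:12941837-12942086 and Mxd4 from chr5:34187711-34187960, both on the minus strand and written 5′ to 3′.
Mycn: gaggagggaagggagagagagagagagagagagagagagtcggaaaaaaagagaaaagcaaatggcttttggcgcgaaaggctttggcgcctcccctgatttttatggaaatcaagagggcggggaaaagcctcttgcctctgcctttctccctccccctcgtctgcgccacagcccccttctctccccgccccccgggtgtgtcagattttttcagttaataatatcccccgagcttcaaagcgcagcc
Mxd4: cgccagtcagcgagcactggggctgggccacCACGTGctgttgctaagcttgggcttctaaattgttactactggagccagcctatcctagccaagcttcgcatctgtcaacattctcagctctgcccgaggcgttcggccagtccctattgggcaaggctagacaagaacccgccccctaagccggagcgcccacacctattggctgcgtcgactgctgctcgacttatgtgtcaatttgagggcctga
The capitals mark CACGTG, the E-box that MAX dimers bind, which reads the same on both strands. It begins 219 bases before the start of Mxd4. Of the 7 members with a promoter in the RefSeq table used here, Mxd4 alone held it, and 1978 of 32851 promoter windows did (6.02%).

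By library, Mycn had the largest ratio between the populations among the 8 genes. Mycn (chromosome 12, 12936093-12941836, minus strand) was at 4.80, 3.53 and 1.996 CPM in Lin-kit+ libraries a, b and c, from 48, 66 and 72 UMIs. It was at 191 CPM in Fgd5+ and 204 CPM in HSC-Fgd5+, from 796 and 442 UMIs. The groups did not overlap, and the mean was 57.4 times the Lin-kit+ mean of 3.44 ± 1.40 (SD, n = 3 libraries). A Mycn UMI was found in 2.76%, 1.42% and 1.06% of Lin-kit+ cells against 47.3% of Fgd5+ and 43.9% of HSC-Fgd5+ cells. In the sums of a library, more cells with a transcript and more transcript per cell cannot be told apart.

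Myc itself was nearly level across libraries. Myc (chromosome 15, 61985341-61990361, plus strand) was at 67.7, 71.7 and 72.6 CPM in Lin-kit+ a, b and c, and at 82.5 CPM in Fgd5+ and 78.9 CPM in HSC-Fgd5+. The reporter-positive libraries lay above, by 1.14 times the Lin-kit+ mean, but by UMIs per cell the groups overlapped, with 0.327 to 0.506 in Lin-kit+ and 0.434 and 0.329 in the reporter-positive libraries. Mycl (chromosome 4, 122995588-123002490, plus strand), the third MYC gene, was sparse, with 15, 28 and 42 UMIs in Lin-kit+ a, b and c (1.5, 1.5 and 1.2 CPM), 1 UMI in Fgd5+ and 0 in HSC-Fgd5+, which allows up to 1.38 CPM there. The ratio of reporter-positive over Lin-kit+ was 0.120, with a counting interval of 0.00301 to 0.688. By CPM the Mycl groups did not overlap, with the reporter-positive libraries below. Their counting intervals reached up to 1.34 CPM in Fgd5+ and 1.70 CPM in HSC-Fgd5+, within or above the Lin-kit+ values.

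**Figure D1:**
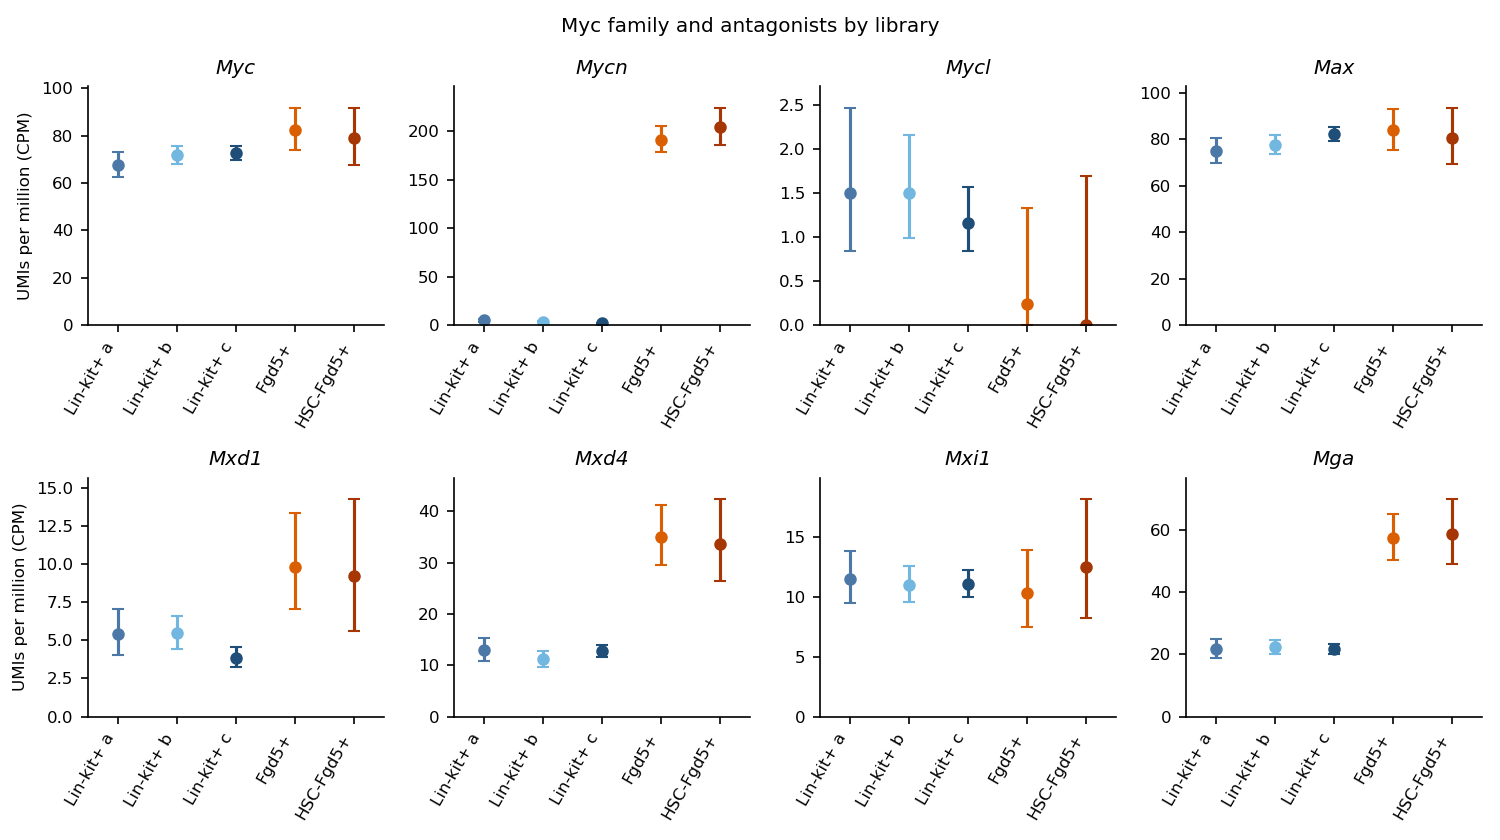
Levels (CPM, y axis, linear from 0, a scale of its own in each panel) for the 8 genes in the 3 Lin-kit+ and the 2 reporter-positive libraries, with 95% Poisson intervals that cover counting error only. Mycn is under 5 CPM in Lin-kit+ and at 191 and 204 CPM in the reporter-positive libraries, Mxd4 and Mga stand apart with no overlap, and Max and Mxi1 overlap between groups.

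Max and Mxi1 overlapped between the groups, and the other partner genes did not. Max (chromosome 12, 76937269-76962323, minus strand), the obligate partner of the MYC and MXD proteins, was at 75.0, 77.8 and 82.3 CPM in Lin-kit+ a, b and c and at 84.0 and 80.8 CPM in Fgd5+ and HSC-Fgd5+. Mxi1 (chromosome 19, 53310128-53373293, plus strand) was at 11.5, 11.0 and 11.1 CPM in Lin-kit+ and at 10.3 and 12.5 CPM in the reporter-positive libraries, on both sides of Lin-kit+. An annotated gene, Gm10197, overlaps Mxi1 on the opposite strand.

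Mxd4, Mxd1 and Mga were higher in the reporter-positive libraries. Mxd4 (chromosome 5, 34176580-34187710, minus strand, with Gm42846 on the opposite strand) was at 12.9, 11.1 and 12.8 CPM in Lin-kit+ a, b and c and at 35.0 and 33.7 CPM in Fgd5+ and HSC-Fgd5+, 2.80 times the Lin-kit+ mean of 12.3 ± 0.986 (SD, n = 3). Mga (chromosome 2, 119872503-119970129, plus strand) was at 21.7, 22.3 and 21.7 CPM in Lin-kit+ and at 57.3 and 58.6 CPM in the reporter-positive libraries, 2.65 times the Lin-kit+ mean of 21.9 ± 0.366. Both genes stood apart by CPM and by UMIs per cell, and the pair of reporter-positive libraries differed from each other by less than their counting intervals. Mxd1 (chromosome 6, 86647044-86669234, minus strand), which is known to rise as myeloid cells mature, was at 5.40, 5.46 and 3.85 CPM in Lin-kit+ and at 9.84 and 9.23 CPM in the reporter-positive libraries, from 41 and 20 UMIs. Its groups did not overlap by CPM but did by UMIs per cell.

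How many of the 8 genes count as higher depends on the scale. By CPM, both reporter-positive libraries lay above all 3 Lin-kit+ libraries for 5 of the 8 genes (Myc, Mycn, Mxd1, Mxd4, Mga) and below them for 1 (Mycl), and so they did for 61.8% and 20.6% of the 11991 genes tested, so the count of 5 is close to that of all genes. By edgeR with TMM scaling, which sets the median gene near 0, the log2 difference of reporter-positive over Lin-kit+ was 5.42 for Mycn (SE 0.29), 0.95 for Mxd4 (SE 0.12), 0.87 for Mga (SE 0.09) and 0.47 for Mxd1 (SE 0.25). On that scale it was -0.34 for Myc (SE 0.08), -0.46 for Max (SE 0.08) and -0.53 for Mxi1 (SE 0.15), while with library totals it was 0.19 for Myc, 0.07 for Max and 0.00 for Mxi1. No direction is therefore given for these 3 genes. Library totals raised the median of all genes by 0.53, and Mycn, Mxd4, Mga and Mxd1 were above 0 on both scales.

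The MYC transcripts had another composition in the reporter-positive libraries. Myc made up 91.5%, 93.4% and 95.8% of the UMIs of the 3 MYC genes in Lin-kit+ a, b and c, against 30.1% in Fgd5+ and 27.9% in HSC-Fgd5+, where Mycn made up 69.8% and 72.1%. The 3 MYC genes summed to 74.0, 76.8 and 75.7 CPM in Lin-kit+ a, b and c and to 274 and 283 CPM in Fgd5+ and HSC-Fgd5+. Mxd1, Mxd4 and Mxi1 together summed to 29.8, 27.6 and 27.7 CPM in Lin-kit+ and to 55.2 and 55.4 CPM in the reporter-positive libraries. MYC UMIs thus outnumbered those of the 3 antagonists 2.48 to 2.78 times in Lin-kit+ and 4.96 and 5.11 times in the reporter-positive libraries. Max stood at the summed MYC level in Lin-kit+ and well under it in the reporter-positive libraries. These are transcript counts, and protein amounts were not measured.

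Within reporter-positive cells, Mycn and Myc were found partly in the same and partly in different cells. In Fgd5+, 222 of 793 cells had a Myc UMI and 375 a Mycn UMI, and 112 cells had both, where independent detection would give 105. In HSC-Fgd5+, 122 of 519 cells had Myc and 228 Mycn, and 71 cells had both, where independent detection would give 53.6. Cells with both transcripts were thus somewhat more frequent than independent detection gives, with all UMIs of cells of unequal depth. In Lin-kit+ a, b and c, 14, 21 and 24 cells had both, where independent detection would give 11.3, 13.4 and 18.1. Averaged over libraries, the observed count was 1.20 times the independent one in reporter-positive cells and 1.38 times in Lin-kit+ cells. Inside single classes of Lin-kit+ cells, described further on, it was near the independent one with all UMIs. With libraries pooled it was 0.993 times in HSC-like, 1.02 in megakaryocyte-like, 1.03 in erythroid-like and 1.02 in lymphoid-primed multipotent-like cells. The value for all Lin-kit+ cells thus holds for the mixed classes and not inside these.

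The number of Mycn UMIs per cell was spread widely. In Fgd5+, 23.96% of cells had 1 Mycn UMI, 9.21% had 2, 7.19% had 3, 2.90% had 4 and 4.04% had 5 or more, up to 10 UMIs. In HSC-Fgd5+ the most in 1 cell was 8, and 2.31% of cells had 5 or more. In Lin-kit+ no cell had more than 4 Mycn UMIs, while Myc reached 8, 5 and 9 UMIs in 1 cell of a, b and c. Free transcripts could give single UMIs. In late neutrophil-like cells of Lin-kit+, taken as a class that should lack Mycn, 0.106% of cells had one at a median of 5138 UMIs per cell. Fgd5+ held 1 such cell and HSC-Fgd5+ held 0. Free Mycn transcripts were therefore not measured in these libraries, where Mycn was far more abundant.

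At equal depth the populations remained apart. After thinning to 2000 UMIs per cell, which left out 24, 418 and 218 shallower cells of a, b and c, 27 of Fgd5+ and 136 of HSC-Fgd5+, Mycn was found in 1.29%, 0.952% and 0.573% of Lin-kit+ cells and in 29.9% and 29.5% of Fgd5+ and HSC-Fgd5+ cells. Myc was found in 11.4%, 12.4% and 12.99% of Lin-kit+ cells and in 15.4% and 12.3% of reporter-positive cells, so the groups overlapped for Myc. Mxd4 was found in 2.15% to 3.35% of Lin-kit+ cells and in 7.44% and 7.31% of reporter-positive cells, and Mga in 4.50% to 4.87% against 9.27% and 7.83%. Thinned, 36 Fgd5+ cells had both Myc and Mycn, where independent detection would give 35.3, and 17 HSC-Fgd5+ cells did, where it would give 13.9.

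**Figure D2:**
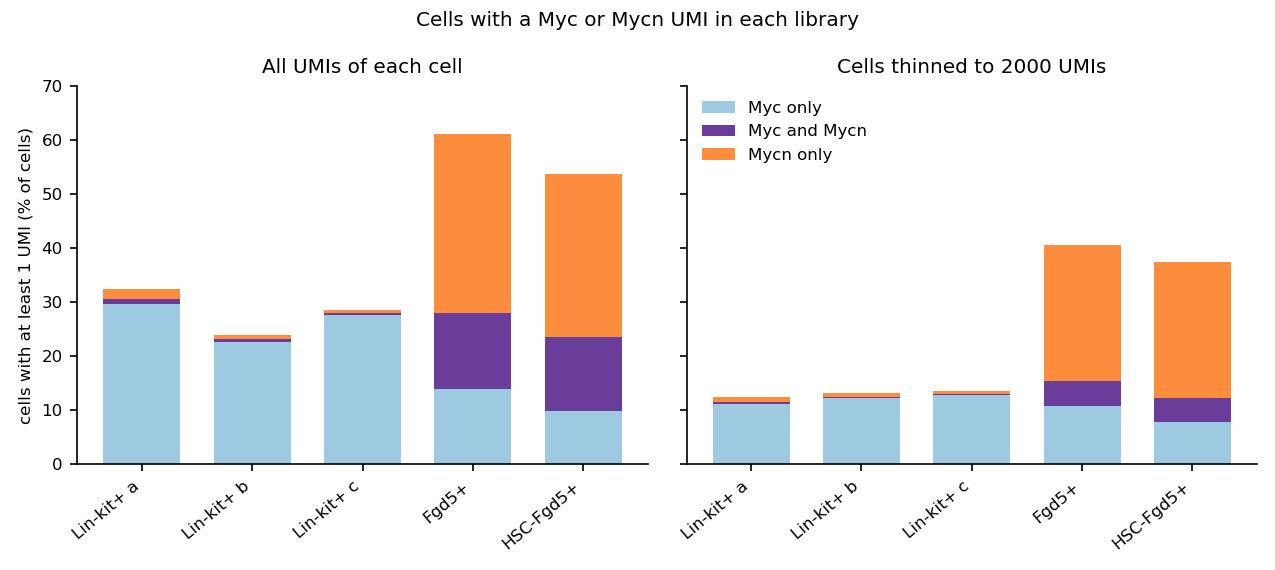
Share of cells (y axis, % of the cells of a library) with at least 1 UMI of Myc only, of both or of Mycn only, with all UMIs (left) and after thinning each cell to 2000 UMIs (right). Mycn only accounts for 33.2% of Fgd5+ and 30.3% of HSC-Fgd5+ cells with all UMIs, and for at most 1.72% in a Lin-kit+ library.

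Cells were grouped by clustering on variable genes other than the 8 members. Reporter-positive cells fell mostly into 3 HSC-like clusters, of which a small one was lower in Mycn than the main one. The main one, cluster 1, held 722 Fgd5+ and 364 HSC-Fgd5+ cells, and Mycn was at 213 and 233 CPM in them. A small one, cluster 22, whose leading genes include histones and Gpsm2, a spindle protein, held 48 and 31 cells, and Mycn was at 66.8 CPM (interval 45.9 to 93.8) in Fgd5+ and 78.75 CPM (51.0 to 116) in HSC-Fgd5+. In both libraries the interval of cluster 22 lay below that of cluster 1. Cluster 22 also had more transcripts of the cell division list, 5112 CPM summed over 20 genes against 639 CPM in cluster 1.

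Other members were compared between these clusters too. Mxd4 was at 36.8 and 34.0 CPM in cluster 1 and at 18.2 and 12.6 CPM in cluster 22, in Fgd5+ and HSC-Fgd5+. Myc was at 84.6 and 83.1 CPM in cluster 1 and at 64.7 and 41.0 CPM in cluster 22. Mxd3, the MXD gene that is known to be made by dividing cells and is not among the 8, was at 1.69 CPM in cluster 1 of Fgd5+, at 0 in that of HSC-Fgd5+, which allows up to 1.82 CPM, and at 60.7 and 72.5 CPM in cluster 22. By CPM, cluster 22 was thus lower in Mycn and higher in Mxd3 in both libraries, with intervals apart. For Mxd4, from 9 and 4 UMIs in cluster 22, and for Myc the intervals of the clusters overlapped in both libraries. Cells of cluster 22 were deeper, with medians of 9519.5 and 9812 UMIs against 4231 and 4293 in cluster 1. Per cell, Mycn was at 0.688 and 0.806 UMIs in cluster 22 against 1.05 and 1.05 in cluster 1. Myc was at 0.667 and 0.419 UMIs per cell against 0.417 and 0.376. The third, cluster 20, held 118 HSC-Fgd5+ and 10 Fgd5+ cells of low depth, a median of 1269 UMIs in HSC-Fgd5+, and its HSC-Fgd5+ cells had Mycn at 184 CPM (126 to 260) and Mga at 126 CPM (79.3 to 191). This Mycn interval overlapped that of cluster 1 in HSC-Fgd5+ (210 to 257).

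Some cells crossed between these groups. Of the Lin-kit+ cells, 40 lay in the 3 clusters. The 9 of library a held 6 Mycn UMIs in 4 cells, or 133 CPM (48.7 to 289). The 31 of b and c held 0 (interval 0 to 51.3 CPM) at their depth of 71878 UMIs, and the intervals overlapped. The HSC markers summed to 1106 CPM in the cells of a and to 1614 CPM in those of b and c, against 1861 CPM in the reporter-positive cells of these clusters, whose Mycn was at 199 CPM. Without the 40 cells, Mycn in Lin-kit+ was at 4.22, 3.54 and 1.997 CPM in a, b and c, an alternative chosen after the data were seen. The 19 reporter-positive cells in other clusters had 32.0 CPM of Mycn (8.72 to 81.9).

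Within Lin-kit+ cells, the 3 MYC genes had different distributions over classes of cells, which were named by marker genes and called X-like. Myc was highest in HSC-like cells (163, 145 and 170 CPM in a, b and c), eosinophil-like cells (165, 164 and 148 CPM) and erythroid-like cells (139, 164 and 157 CPM), and these 3 classes overlapped. Under the 5 other clusterings erythroid-like cells were highest. An eosinophil-like class was found under only 1 of them, with 34 cells in place of 337. Myc was lowest in late neutrophil-like cells, at 6.73, 7.43 and 10.2 CPM. Between them lay lymphoid-primed multipotent-like cells at 112 ± 38.8 CPM (SD, n = 3 libraries), megakaryocyte-like cells at 93.3 ± 5.72 and early granulocyte-like cells at 87.4 ± 8.60, which overlapped. Mast or basophil-like cells at 70.1 ± 1.94, monocyte-like cells at 55.7 ± 3.98 and dendritic-like cells at 39.7 ± 13.1 CPM followed, the latter pair overlapping. Along the granulocyte classes Myc was therefore lower in the late than in the early class in all 3 libraries, without overlap. The 26 B-lymphoid-like cells held 3 Myc UMIs and are too few to place, so orders are given over the other 10 classes.

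The HSC-like name of these Lin-kit+ cells needs a limit. Of the 799, 759 lay in cluster 6, which had 5 of the 10 HSC markers (Procr, Hlf, Mecom, Ly6a, Meis1) and not Slamf1, the gene of CD150. Under each of the 5 other clusterings tried, at most 10 of these 759 cells were still named HSC-like, and most were named lymphoid-primed multipotent-like or left unnamed, so the name depends on the clustering. In cluster 6 Myc was at 165 CPM and Mycn at 11.7, 17.9 and 10.7 CPM in a, b and c, with 0 Mycl UMIs. Reporter-positive cells were lower in Myc than these cells, at 82.5 and 78.9 CPM, and higher in Mycn, at 191 and 204 CPM.

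Mycn in Lin-kit+ was limited to few classes. Of its 186 UMIs, 69 fell in megakaryocyte-like cells, 42 in erythroid-like, 40 in HSC-like and 22 in lymphoid-primed multipotent-like cells, and the 4 classes hold 3.46%, 7.18%, 4.21% and 2.70% of all Lin-kit+ UMIs. Megakaryocyte-like cells were at 53.7, 31.5 and 23.0 CPM in a, b and c, HSC-like cells at 23.3, 17.1 and 10.5 CPM, and lymphoid-primed multipotent-like cells at 16.9, 13.6 and 10.9 CPM. The latter 2 classes overlapped each other, and megakaryocyte-like cells lay above both in each library, although the ranges over libraries met. Erythroid-like cells were at 19.2, 14.5 and 4.05 CPM. Under 4 of the 5 other clusterings the highest class was HSC-like instead, with 6 or 7 Mycn UMIs in 39 to 45 Lin-kit+ cells. In the clustering described here, Lin-kit+ cells in the reporter-positive clusters held Mycn UMIs in library a alone, so that order may rest on 1 library. The other 7 classes were at 0.578 CPM or less over the 3 libraries together, with 0 UMIs in eosinophil-like, dendritic-like and B-lymphoid-like cells, which allows up to 1.42, 1.80 and 38.3 CPM.

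Mycn also varied inside these lineages. Of the megakaryocyte-like clusters, cluster 19, led by Pf4 and Ppbp, was at 101, 71.5 and 59.9 CPM in a, b and c, and cluster 15 at 30.6, 18.7 and 10.9 CPM, without overlap. Of the erythroid-like clusters, cluster 7 was at 33.1, 27.1 and 9.71 CPM, and cluster 16, which had Hba-a1 and Hbb-bt among its markers, had 0 Mycn UMIs in all 3 libraries, which allows up to 11.5, 4.92 and 1.89 CPM. Myc was at 175 CPM in cluster 7 and at 140 CPM in cluster 16. The haemoglobin-positive erythroid-like cluster thus had Myc transcripts, and its Mycn was not detectable at this depth. Library a was highest and c lowest in Mycn in clusters 7, 15 and 19, as in the whole libraries, while megakaryocyte-like cells made up 4.63%, 4.08% and 4.33% of the cells of a, b and c. What sets the libraries apart was not tested.

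Mycl marked another class. Dendritic-like cells held 58 of its 85 Lin-kit+ UMIs (68.2%) with 2.57% of all Lin-kit+ UMIs, at 40.9, 39.0 and 30.6 CPM in a, b and c. It was found in 10.6% of these cells. All other named classes were at 3.26 CPM or less in each library, and 8 of them had 0 UMIs, which allows from 0.286 CPM in late neutrophil-like to 38.3 CPM in B-lymphoid-like cells. Both dendritic-like clusters, which share Cd74, H2-Aa, Batf3, Clec9a and Cd209a of conventional dendritic cells, had it: cluster 17 at 49.9, 43.8 and 30.1 CPM and cluster 18 at 35.6, 35.1 and 30.9 CPM, which overlapped. Cluster 10, unnamed and led by Siglech of plasmacytoid dendritic cells, was at 6.09, 5.17 and 2.43 CPM, below both. In dendritic-like cells Mycl made up 43.9% and Myc 56.1% of the MYC UMIs, and Mycn had 0 UMIs.

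**Figure D3:**
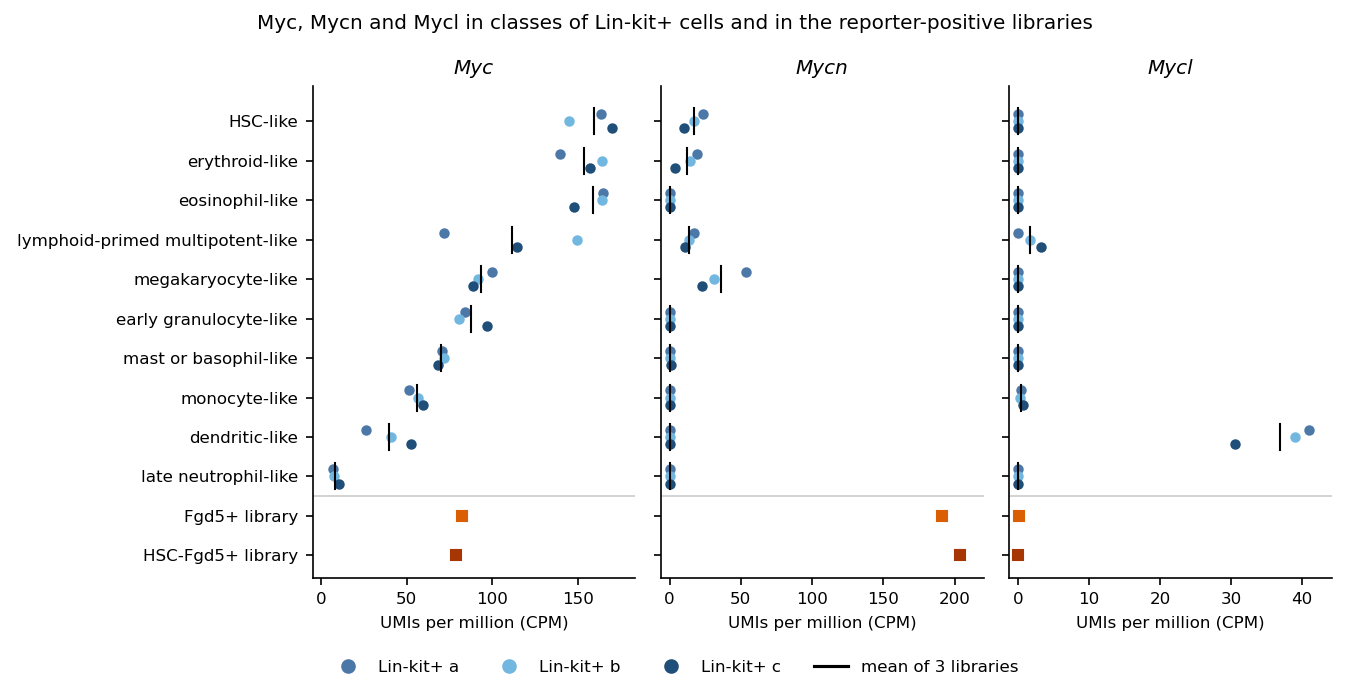
Levels (CPM, x axis, linear, a scale of its own in each panel) of Myc, Mycn and Mycl in 10 classes of Lin-kit+ cells, 1 point per library and a black line at the mean of 3 libraries, with the 2 reporter-positive libraries as squares under the grey line. B-lymphoid-like cells (26) are left out. Myc is high in many classes and lowest in late neutrophil-like cells, Mycn is highest in the reporter-positive libraries at 191 and 204 CPM, and Mycl stands out in dendritic-like cells at 30.6 to 40.9 CPM.

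The partner genes were less restricted. Max was at 72.1 to 99.7 CPM on average in the 10 larger classes, and the means of neighbouring classes lay within the spread between libraries. Mga was lowest in late neutrophil-like cells, at 2.99, 5.40 and 5.80 CPM, apart from the other classes, which averaged 19.7 to 41.0 CPM, while the reporter-positive libraries were at 57.3 and 58.6 CPM. At cluster resolution 2 its highest class was HSC-like, at 67.3 CPM on average in 23 Lin-kit+ cells, above the reporter-positive libraries. Mxd4 was highest in lymphoid-primed multipotent-like (33.2 ± 7.86 CPM, SD, n = 3), HSC-like (32.9 ± 7.50) and mast or basophil-like cells (31.4 ± 11.8), 3 classes that overlapped with each other and with the 35.0 and 33.7 CPM of the reporter-positive libraries, and was lowest in late neutrophil-like cells at 1.50, 3.04 and 4.03 CPM.

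Mxd1 and Mxi1 differed between the granulocyte classes. Mxd1 was at 12.7, 13.5 and 7.90 CPM in late neutrophil-like cells and at 2.22, 3.53 and 1.19 CPM in early granulocyte-like cells, the reverse of Myc, and without overlap. Late neutrophil-like cells had the least Myc, Mxd4 and Mga of these 10 classes under every clustering run. They had the most Mxd1 in the clustering described here, while under each of the 5 others the highest Mxd1 was in HSC-like cells, where it rests on 2 UMIs in 23 to 45 cells. Mxi1 was at 14.8 ± 0.686 CPM in early granulocyte-like, 12.4 ± 0.402 in late neutrophil-like and 10.7 ± 1.03 in monocyte-like cells, and at 8.18 or less in the other named classes. The MYC UMIs outnumbered those of Mxd1, Mxd4 and Mxi1 6.98 times in eosinophil-like and 5.47 times in erythroid-like cells, and made up 0.356 of them in late neutrophil-like cells, the 1 named class with fewer MYC UMIs than UMIs of these 3 antagonists. With Mxd3 and Mnt added to the antagonists, dendritic-like cells also had fewer, at 79.3 CPM of MYC against 122 CPM of antagonist transcripts.

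**Figure D4:**
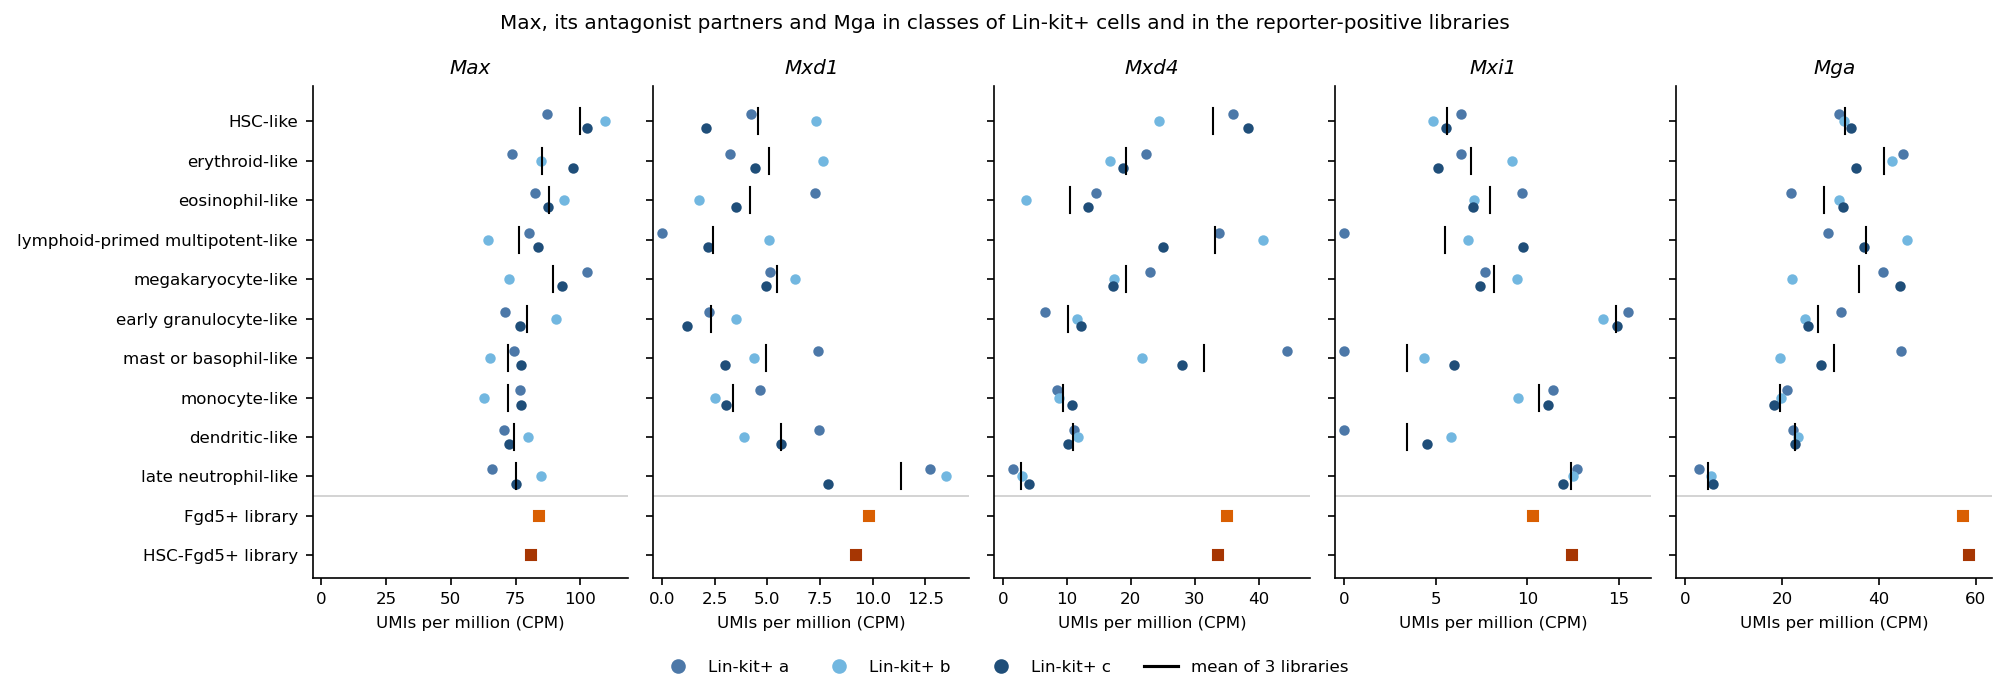
Levels (CPM, x axis, linear, a scale of its own in each panel) of Max, Mxd1, Mxd4, Mxi1 and Mga in 10 classes of Lin-kit+ cells, 1 point per library and a black line at their mean, with the 2 reporter-positive libraries as squares. In the clustering shown, Mxd4 and Mga are lowest and Mxd1 is highest in late neutrophil-like cells, and Mga in both reporter-positive libraries lies above every class shown.

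The genes whose levels most resembled those of the MYC genes were listed by Pearson's r of log2(CPM + 1) over 13 points, the 11 named Lin-kit+ classes and the 2 reporter-positive libraries, among genes with at least 200 UMIs. For Myc they were Rpl30, a ribosomal protein gene (r = 0.980), Wdr77 (0.977) and Gtpbp4, a factor of ribosome assembly (0.975). For Mycn they were Hdgfrp3 (0.974), Mageh1 (0.971) and Sgce (0.968). For Mycl they were Vamp3 (0.946), Batf3, a transcription factor of dendritic cells (0.940), and Cd209a, a lectin of dendritic cells (0.931), of which Batf3 and Cd209a are also markers by which the dendritic-like class was named. The 13 points share libraries and the classes rest on few UMIs for sparse genes, so these values describe and are not tested.

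The rest of the MAX and MLX network was tested with edgeR across all 11991 genes, of which 32.7% were higher and 30.4% lower in the reporter-positive libraries at an adjusted p under 0.05. Of the 5 network genes outside the family, 2 fell and 2 rose, and Mlxipl, with 6 UMIs in all, was not tested. Mlx, which pairs with MXD1, MXD4, MNT and MLXIP in place of MAX, fell from 44.1, 42.0 and 42.1 CPM in Lin-kit+ a, b and c to 20.6 and 23.5 CPM in Fgd5+ and HSC-Fgd5+ (log2 fold change -1.50, SE 0.10, edgeR adjusted p = 2.68e-05). Mxd3 fell from 15.6, 15.7 and 15.9 CPM to 8.64 and 11.1 CPM (log2 fold change -1.25, SE 0.15, adjusted p = 0.000329), and in Lin-kit+ it was highest in dendritic-like cells, at 93.7 ± 10.3 CPM (SD, n = 3), almost all of it in cluster 18 (156 CPM) and not in cluster 17 (6.05 CPM). Both calls held without each library in turn.

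The calls of the rising pair did not hold without single libraries. Mnt, a MAX partner that represses, rose from 5.80, 5.57 and 5.65 CPM to 11.3 and 12.9 CPM (log2 fold change 0.54, SE 0.16, adjusted p = 0.0198). Its adjusted p was 0.0601 without b, 0.0676 without Fgd5+ and 0.0854 without HSC-Fgd5+. Mlxip, the glucose-sensing partner of MLX also called MondoA, rose from 6.0, 5.67 and 5.10 CPM to 12.2 and 10.6 CPM (log2 fold change 0.53, SE 0.18, adjusted p = 0.034), and was past the threshold without a alone of the 5 libraries (0.0765 without b, 0.08 without c, 0.285 without Fgd5+ and 0.0517 without HSC-Fgd5+). With DESeq2 the adjusted p was 0.127 for Mnt and 0.153 for Mlxip.

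The proteins through which the network acts were mixed, and no list has a test of its own. Of the 12 genes of the SIN3 and histone deacetylase corepressor, which MXD proteins recruit, 7 fell and 1 rose, with a median log2 fold change of -0.38 against 0.07 over all genes. With library totals 2 fell and 4 rose, so the direction of this list depends on the scaling. Sap18 fell from 144, 155 and 172 CPM to 111 and 98.3 CPM (log2 fold change -1.12, adjusted p = 0.000117), and Rbbp4, a histone-binding subunit, from 178, 195 and 215 CPM to 128 and 144 CPM (-1.07, adjusted p = 0.000111). Sap30 was at 10.9, 6.05 and 5.18 CPM in Lin-kit+ and at 36.0 CPM in Fgd5+ but 12.9 CPM in HSC-Fgd5+ (1.36, adjusted p = 0.0344). Its rise rests on Fgd5+: without that library the log2 fold change was 0.31 (adjusted p = 0.685), without b the adjusted p was 0.106, and without c 0.0572.

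Of 12 MYC coactivators and cofactors, 3 rose and 3 fell (median 0.10), and with library totals 8 rose and 2 fell. Actl6a fell with a log2 fold change of -0.83 (SE 0.07, adjusted p = 8.58e-05) and Ruvbl2 with one of -0.80 (SE 0.09, adjusted p = 0.000314), both subunits of chromatin remodelling complexes. Kat2a, a histone acetyltransferase, went from 23.7, 14.99 and 11.7 CPM to 39.3 and 45.23 CPM (0.82, adjusted p = 0.0432), and Trrap, the scaffold that carries it to MYC, from 12.4, 10.0 and 9.89 CPM to 21.1 and 21.7 CPM (0.47, adjusted p = 0.033). Both calls were lost without b (Kat2a 0.113, Trrap 0.1), c (0.0503, 0.0714), Fgd5+ (0.128, 0.139) or HSC-Fgd5+ (0.172, 0.106).

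Genes of MYC protein turnover went both ways. Of 11, 3 rose and 4 fell (median 0.02). Gsk3b, the kinase that marks MYC proteins for destruction, rose from 15.8, 15.1 and 14.2 CPM in Lin-kit+ a, b and c to 42.0 and 37.8 CPM in Fgd5+ and HSC-Fgd5+ (log2 fold change 0.89, SE 0.12, adjusted p = 0.000512), and Fbxw7, the ubiquitin ligase subunit that then binds them, from 6.20, 5.30 and 5.68 CPM to 13.2 and 15.7 CPM (0.79, SE 0.16, adjusted p = 0.00474). Aurka, a mitotic kinase known to stabilise MYCN, fell from 39.3, 35.2 and 44.8 CPM to 15.8 and 24.0 CPM (-1.58, SE 0.19, adjusted p = 0.000334), and Set, an inhibitor of the phosphatase PP2A, from 425, 444 and 476 CPM to 264 and 253 CPM (-1.33, SE 0.08, adjusted p = 1.43e-05). These counts did not change when any 1 library was left out.

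In the PRC1.6 complex of MGA, 3 of 9 genes rose and 1 fell (median -0.02), and 1 rose without Fgd5+. With library totals 5 rose and 0 fell. E2f6, a repressive E2F, was at 4.30, 4.82 and 4.79 CPM in Lin-kit+ and at 28.8 CPM in Fgd5+ and 12.9 CPM in HSC-Fgd5+ (log2 fold change 1.70, SE 0.30, adjusted p = 0.00206; 0.90 without Fgd5+, adjusted p = 0.0223). Ring1, its ubiquitin ligase, was at 20.0, 14.6 and 8.76 CPM and at 43.4 and 49.4 CPM (1.18, SE 0.32, adjusted p = 0.0158; 0.0699 without Fgd5+ and 0.0797 without HSC-Fgd5+). Cbx3, a heterochromatin protein, was called lower (-0.63, SE 0.17, adjusted p = 0.0133), while its CPM overlapped at 106, 155 and 148 in Lin-kit+ against 129 and 127, and its call was lost without Fgd5+ (0.0643), without HSC-Fgd5+ (0.065) and with library totals (-0.09, adjusted p = 0.634).

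Genes of known MYC target groups were counted in the same way. Of 30 ribosome biogenesis targets, 22 fell and 0 rose with edgeR, with a median log2 fold change of -0.59. At an unadjusted p under 0.05, 0 rose with edgeR and 0 with DESeq2. With library totals 8 fell and 5 rose, so the direction of this list depends on the scaling. Mrto4 fell from 76.1, 80.7 and 74.3 CPM to 46.3 and 45.23 CPM (-1.29, SE 0.09, adjusted p = 2.76e-05), and Noc4l from 31.7, 33.1 and 36.6 CPM to 20.9 and 21.7 CPM (-1.21, SE 0.11, adjusted p = 0.00011), both factors of ribosome assembly.

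Of 30 metabolism and growth targets, 24 fell and 1 rose (median -0.91). Tfrc, the transferrin receptor, fell from 16.4, 17.6 and 16.3 CPM to 2.88 and 2.77 CPM (log2 fold change -3.09, SE 0.18, adjusted p = 1.3e-05), and Mthfd2, a mitochondrial folate enzyme, from 48.8, 50.6 and 53.6 CPM to 11.0 and 6.46 CPM (-3.00, SE 0.19, adjusted p = 1.82e-05). Ccnd2, the cyclin D2 gene, rose from 123, 130 and 136 CPM to 523 and 530 CPM (1.48, SE 0.07, adjusted p = 5.93e-06). The pair of reporter-positive libraries was close for Tfrc and Ccnd2, while for Mthfd2 the log2 fold change was -3.54 without Fgd5+ and -2.75 without HSC-Fgd5+. A second gene of this list was called higher when HSC-Fgd5+ was left out, for 2 in all.

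Division genes moved with these lists. All 20 of the cell division list fell, with a median log2 fold change of -1.43, and 19 fell when b, Fgd5+ or HSC-Fgd5+ was left out. Rrm2, a subunit of ribonucleotide reductase, fell from 221, 244 and 283 CPM to 29.7 and 27.2 CPM (-3.66, SE 0.14, adjusted p = 3.22e-06), and Aurkb, a mitotic kinase, fell by 2.0 on the log2 scale (SE 0.14, adjusted p = 2.53e-05). Summed over the list, division genes were at 2493 to 2707 CPM in Lin-kit+ and at 1234 and 1328 CPM in the reporter-positive libraries. Their part in the levels of the MYC targets and members was not tested.

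Genes known to be repressed by MYC and targets of MLX rose in part. Of 5 tested repressed genes, 3 rose and 1 fell (median 0.51). Ndrg2 rose from 5.30, 7.71 and 6.85 CPM to 34.8 and 27.2 CPM (log2 fold change 1.69, SE 0.19, adjusted p = 0.000269) and Ndrg1 from 19.3, 21.4 and 20.8 CPM to 51.6 and 42.0 CPM (0.67, SE 0.12, adjusted p = 0.00288), both of the N-myc downstream regulated family. Cdkn1a, the cell cycle inhibitor p21, fell from 11.5, 13.3 and 13.3 CPM to 7.68 and 9.69 CPM (-1.13, SE 0.17, adjusted p = 0.00105), and 2 genes of this list fell when c was left out.

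All 3 MLX targets rose. Txnip, an inhibitor of glucose uptake, rose from 45.3, 42.5 and 34.7 CPM to 426 and 536 CPM (log2 fold change 3.02, SE 0.14, adjusted p = 6.16e-06), and its relative Arrdc4 from 4.50, 2.14 and 1.05 CPM to 18.2 and 22.2 CPM (2.65, SE 0.52, adjusted p = 0.00372). Mlx itself fell, as given above. The 3 genes were called higher under all alternatives run.

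**Figure D5:**
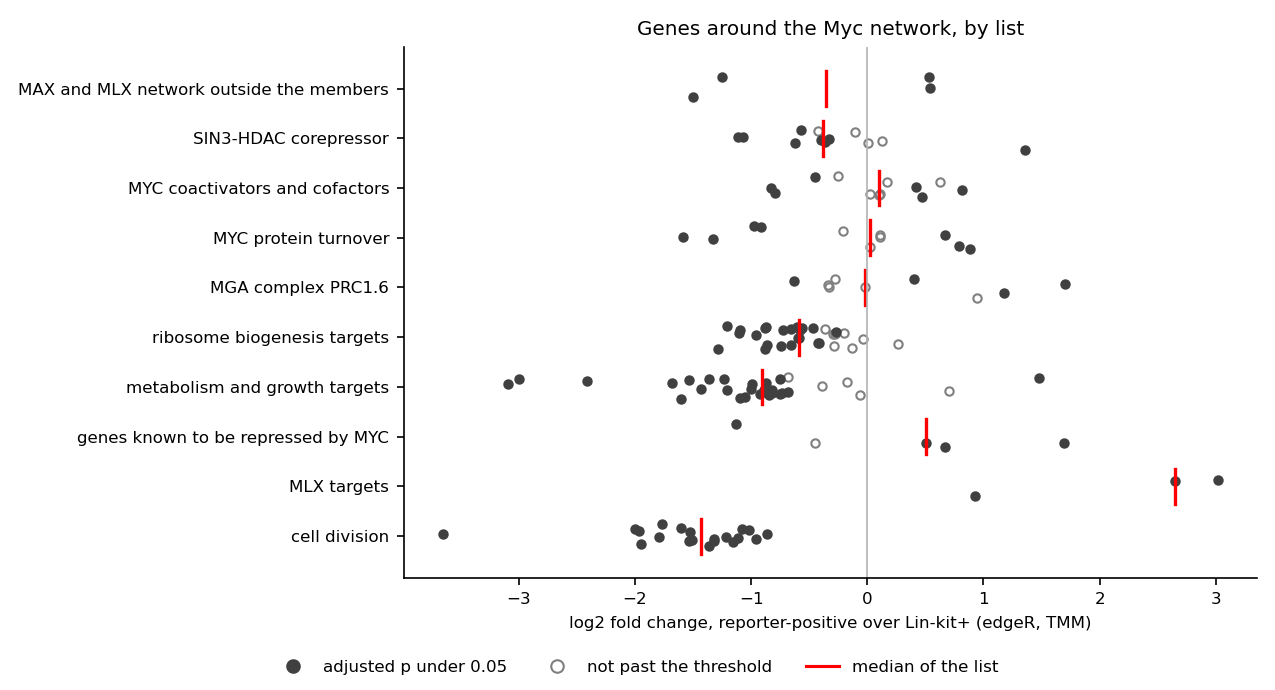
Log2 fold change (x axis, reporter-positive over Lin-kit+ libraries, edgeR with TMM) of the tested genes of 10 lists, filled where the adjusted p is under 0.05, with a red line at the median of each list. The 20 division genes all lie below 0 and the 3 MLX targets all above it, and the medians run from -1.43 to 2.65.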

How the data were processed

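Bone marrow cells were profiled with the 10x Genomics Chromium 3′ kit, version 2. The authors deposited raw UMI counts, 1 row per gene and 1 column per cell, not normalized and limited to genes found in 3 or more cells. The submitters' processing notes name Cell Ranger 1.3 and 2.1, Seurat 2.3.4 and the mm10 build. The members and lists were chosen with earlier results of these data known.

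Counts were summed per library and tested in edgeR 4.0.16 (R 4.3.3), 2 reporter-positive against 3 Lin-kit+ libraries. The 2 reporter-positive libraries came from different gates and were treated as replicates. The spread behind the p-values therefore mixes gate with library and may be technical. TMM, filterByExpr, the quasi-likelihood test and Benjamini-Hochberg adjustment over 11991 genes were used. The fit was also run on simulated data with far fewer changed genes than were called here, so that run cannot decide between scalings. DESeq2 1.42.0, library totals, no filter, equal cell numbers, cell filters and each library left out were alternatives. Cells (all kept, with 165 Scrublet doublets, 1.28%) were clustered without the members (scanpy 1.11.5, leidenalg 0.10.2, 2000 variable genes, 20 components, 15 neighbours, resolution 1, 25 clusters). A cluster name needed 3 markers of a fixed list, each 2-fold over the other cells and present in 5% of the cluster. Class CPM used UMIs summed per class and library. Intervals are exact Poisson for CPM, and the floor is 3 counts.

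Named were all members, up to 2 genes each way with the largest fold change among those past an adjusted p of 0.05 with at least 100 UMIs per list, and the 3 genes most like Myc, Mycn and Mycl. Depth was 2166655 to 36080242 UMIs per library, so a transcript under 1 CPM rests on few UMIs.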

Additional observations from a re-analysis of the deposited data

How the results depend on the processing

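The genes called by edgeR, 3921 higher and 3646 lower, became 6579 and 1995 with library totals, which raised the median log2 fold change of all genes by 0.53. The same scaling gave 4 higher and 2 lower SIN3 corepressor genes, 8 higher coactivators, 5 higher and 0 lower PRC1.6 genes, 5 higher and 8 lower ribosome biogenesis targets and 4 higher metabolism targets. DESeq2 and equal cell numbers each left 0 higher network genes (0 and 1 at an unadjusted p under 0.05) and 1 higher coactivator. Without the filter on low counts there were 1 higher network gene, 1 higher coactivator and 2 lower PRC1.6 genes, and without doublets also 2 lower PRC1.6 genes. With each library left out in turn, higher calls ranged from 0 to 2 for network genes (0 without b, Fgd5+ or HSC-Fgd5+, 1 without c), 0 to 1 for SIN3 genes (0 without b, c or Fgd5+), 0 to 3 for coactivators (0 without b or HSC-Fgd5+, 1 without c or Fgd5+), 1 to 3 for PRC1.6 genes (1 without Fgd5+) and 1 to 2 for metabolism targets (2 without HSC-Fgd5+). Lower calls ranged from 0 to 1 for PRC1.6 genes (0 without HSC-Fgd5+) and from 1 to 2 for genes repressed by MYC (2 without c). Of the 30 named pathway genes, 23 stayed past the threshold under all alternatives run, and 0 changed direction. The ratio of Mycn to Myc UMIs, 0.0492 in Lin-kit+ and 2.45 in reporter-positive cells, was 0.0743 and 2.90 after thinning, which weights cells equally and leaves out the shallowest. Of 672 alternative values for 88 levels of a member in a class, 585 moved by less than 1 SD between libraries and 87 by more. The HSC-like, eosinophil-like and lymphoid-primed multipotent-like classes of Lin-kit+ changed their cells with the clustering. The last, with 405 cells in the main clustering, took in 757 cells of cluster 6 at resolution 0.5 and 739 with 30 neighbours. In every clustering run Myc was lowest in late neutrophil-like and Mycl highest in dendritic-like cells, but the highest class of others moved in the 5 other clusterings. Mxd1 and Mxd4 moved to HSC-like in 5 (17.1 to 48.7 and 41.0 to 78.8 CPM) and Myc to erythroid-like in 5 (146 to 155 CPM). Mycn moved to HSC-like in 4 (38.9 to 53.0 CPM, from 6 or 7 UMIs that may rest on 1 library). Mga moved to HSC-like at resolution 2 (67.3 CPM) and with 30 neighbours (47.2 CPM). The causes of these shifts were not tested. No paired analysis was possible because the Lin-kit+ libraries could not be linked to single samples and replicate numbers only name samples in accession order. Depth limits Mycl, with 1 UMI in both reporter-positive libraries together.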
